A study of Mus musculus with 9 samples.

Results

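RNA counts of 9 embryos were examined for 9 genes of the type II transmembrane serine protease family, out of 54232 genes counted. The members are Corin, Tmprss2, Tmprss3, Tmprss4, Tmprss5, Tmprss7, Tmprss9, Hpn and St14, matched from Ensembl identifier to mouse symbol. They were chosen by family and selected on the counts of all 9 libraries, with Corin and Tmprss4 known to differ between genotypes in opposite directions, so their genotype values are a description and carry no p-value. The libraries came from cochlear ducts microdissected from mouse embryos at E14.5, 3 Prdm16 WT, 3 Prdm16 cGT heterozygotes with 1 mutant allele and 3 Prdm16 cGT nulls with both alleles mutant. All embryos were littermates of heterozygote intercrosses on an FVB/NJ background, and each library held the ducts of both ears of 1 embryo. The cGT allele is carried through the germline, so every cell of a mutant embryo carried it, and the values do not describe its loss in one cell type alone. The comparison asked which RNAs change when Prdm16, a zinc-finger transcription regulator, is lost. In a whole duct, fewer cells of a type and less RNA per cell cannot be told apart.

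Type II transmembrane serine proteases are enzymes held in the cell membrane by a segment near their amino end, with the protease domain facing the outside. They are made as inactive precursors, are cut to become active, and in turn cut precursors of hormones, growth factors, channels and matrix proteins at the cell surface. Epithelia use several of them, and mutations of TMPRSS3 cause recessive deafness in people. The Kunitz-type inhibitors Spint1 and Spint2 hold several members in check.

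The members share one catalytic site, and the coding sequence around its serine shows how closely related they are. The following 30-base stretches were found by script in GENCODE vM21 transcripts (GRCm38, the mm10 build), each read 5′ to 3′ in frame, with the codon of the catalytic serine in capitals.
Corin: tgcatgggagacAGCggtgggcctctggtt
Tmprss2: tgccagggagacAGTggagggccgctggtt
Tmprss3: tgccagggagacAGTggaggacccctggtg
Tmprss4: tgccagggtgacAGTggtgggcctttgatg
Tmprss5: tgccagggagacAGCgggggacccctggta
Hpn: tgccagggcgacAGTggaggcccctttgtg
St14: tgccagggtgacTCTggtggccccttgtca
Tmprss7: tgcaaaggagatTCAggaggacctttgtct
Tmprss9, first site: tgccagggggacTCCgggggacccctggtc
Tmprss9, second site: tgccagggtgatTCTggtggccccttggca
The 9 members shared 14 of the 30 positions, counting the second site of Tmprss9. With that same site of Tmprss9, pairs of members were identical at 17 to 28 positions with a median of 22. The closest pair was then Tmprss9 and St14, and the first site of Tmprss9 was not compared. The serine was written AGC in 2 members (Corin and Tmprss5), AGT in 4 and TCN in 3. The 3 TCN genes are St14, Tmprss7 and Tmprss9, all of the matriptase subfamily. Corin and Tmprss4, the pair that separated by genotype, used different codons and lie on different chromosomes.

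Total counts ranged from 24095322 to 30819118 over the 9 libraries. Levels are given as CPM, the counts scaled to a common library total after TMM normalization, and a library's floor was taken as 3 counts. Prdm16 RNA was 225, 197 and 184 CPM in WT, 151, 123 and 141 CPM in heterozygotes and 23.7, 19.1 and 27.4 CPM in nulls, for embryos 1, 2 and 3 of each genotype, the order used throughout. The duct markers Epcam, Cdh1, Cldn6 and Pax2 summed to 1674 to 1842 CPM in WT, 1814 to 1846 CPM in heterozygotes and 1707 to 2180 CPM in nulls. Kölliker's organ markers, Fgf10 and Tecta, summed to 2730 to 3380 CPM in WT, 2622 to 3265 CPM in heterozygotes and 1479 to 1742 CPM in nulls. Libraries differed in tissue around the duct. The 5 mesenchyme markers summed to 374, 750 and 85.0 CPM in WT, 33.7, 74.7 and 52.5 CPM in heterozygotes, and 46.9, 24.9 and 1170 CPM in nulls. Null embryo 3 also held 10942 CPM of cartilage markers against 4502 to 5499 CPM in the other 8. Most of this sum was Col2a1, at 10051 CPM in null embryo 3 and 4489 to 5487 CPM in the other 8. Acan was 501 CPM in null embryo 3 against 1.02 to 7.02 CPM in the other 8, and Matn1 390 against 5.17 to 13.6 CPM.

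Corin was almost silent in WT ducts and was present in every null duct. It encodes the protease that cuts the precursor of atrial natriuretic peptide in the heart. The gene lies at chr5:72300025-72504473 on the minus strand (GRCm38), with 24 exon blocks. WT embryos gave 11, 5 and 14 reads, or 0.407, 0.196 and 0.474 CPM. Heterozygotes gave 31, 30 and 27 reads, or 1.24, 1.08 and 0.987 CPM. Nulls gave 181, 235 and 189 reads, or 7.47, 7.58 and 7.91 CPM. No value of one genotype reached into another, so the 9 embryos stood in 3 separate steps that followed the number of mutant alleles.

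Mean Corin levels were 0.359 ± 0.145, 1.10 ± 0.13 and 7.65 ± 0.231 CPM (SD, n = 3 each) for WT, heterozygote and null. The null mean was 21.3 times the WT mean, and the heterozygote mean was 3.07 times the WT mean. Nulls stood 6.93 times above heterozygotes. From pooled reads, 605 in nulls against 30 in WT, the ratio was 20.9 with a 95% exact binomial interval of 14.5 to 31.3, which covers counting error only. The heterozygote ratio of 88 to 30 reads was 3.01, with an interval of 1.97 to 4.71. The edgeR log2 fold change was 4.38 ± 0.313 (SE) for null against WT, 1.59 ± 0.380 for heterozygote against WT and 2.79 ± 0.197 for null against heterozygote. The coefficient of variation of Corin was 40.5% in WT, 11.8% in heterozygotes and 3.02% in nulls. Null embryo 3, with its high mesenchyme and cartilage markers, had 7.91 CPM beside 7.47 and 7.58 CPM in null embryos 1 and 2. Roof markers (Fgf9, Otx1 and Otx2) summed to 269 to 319 CPM in WT, 327 to 356 CPM in heterozygotes and 355 to 434 CPM in nulls. Prosensory markers (Sox2, Jag1 and Hey2) summed to 527 to 568, 628 to 667 and 594 to 784 CPM. Both sums were above WT in every heterozygote and null embryo, as Corin was, but single markers were not. Otx2 was 194 CPM in heterozygote 1 against 203 CPM in WT embryo 3. Hey2 was 52.0 CPM in null embryo 3 against 54.6 CPM in WT embryo 1. The part of these markers in the values of Corin was not tested. Reads of Gm20647, an antisense gene that shares 147 exon bases with Corin, numbered 1 in heterozygote 1, 3 in null 3 and 0 elsewhere.

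The RefSeq promoter window of Corin is shown because the gene went from near silence to a clear signal. It spans 250 bases before to 50 after the RefSeq start, chr5:72504491-72504790 on the minus strand of GRCm38.p6, and lies wholly upstream of the GENCODE gene model. Capitals mark CG pairs.
Corin promoter: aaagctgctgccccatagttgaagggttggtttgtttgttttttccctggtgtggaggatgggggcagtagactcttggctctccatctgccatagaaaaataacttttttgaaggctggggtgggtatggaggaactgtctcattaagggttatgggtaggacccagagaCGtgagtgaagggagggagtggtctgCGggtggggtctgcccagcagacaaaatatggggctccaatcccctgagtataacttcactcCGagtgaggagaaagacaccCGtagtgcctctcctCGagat
It holds 5 CG pairs against a median of 7 over 32851 mouse promoters of the same length, and 38% of those promoters hold fewer. Both strands were searched for GACAAGATA and GAAGATGAG, the letters known for Mecom, the closest relative of Prdm16, and for the TATA box letters TATAAA. None of the 3 was found in this window, which says only that these letters are not there. They occur in 0.119%, 0.399% and 13.6% of all promoters.

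Tmprss4 showed the opposite order. It is an epithelial protease that can activate the epithelial sodium channel. Its gene lies at chr9:45172726-45204092 on the minus strand, with 13 exon blocks. WT embryos gave 105, 69 and 79 reads, or 3.89, 2.70 and 2.68 CPM. Heterozygotes gave 9, 12 and 19 reads, or 0.361, 0.432 and 0.694 CPM. Nulls gave 2, 3 and 1 reads, or 0.0825, 0.0968 and 0.0419 CPM. Again no value of one genotype overlapped another, and each null library was at or under the floor of 3 reads.

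Mean Tmprss4 levels were 3.09 ± 0.69, 0.496 ± 0.175 and 0.0737 ± 0.0285 CPM (SD, n = 3 each) for WT, heterozygote and null. Heterozygotes thus held 16.1% of the WT mean and nulls 2.39%. Prdm16 RNA itself stood at 68.5% of WT in heterozygotes and 11.6% in nulls, so Tmprss4 RNA was at a lower share of WT in both genotypes. These RNA shares do not measure PRDM16 protein. The mutant allele is a gene trap, and the study's immunostaining showed no PRDM16 signal in null cochleae at E14.5. Pooled reads were 253 in WT against 6 in nulls, a ratio of 40.7 with a counting interval of 18.4 to 112. WT against heterozygote gave 6.17 (4.41 to 8.85), and heterozygote against null, 40 reads against 6, gave 6.59 (2.78 to 19.0). The edgeR log2 fold change was -5.28 ± 0.390 for null against WT and -2.62 ± 0.310 for heterozygote against WT. In null against heterozygote the gene had too few reads to pass the count filter. Gm17099, which overlaps 412 exon bases of Tmprss4 on the other strand, had 0 reads in all 9 libraries. In WT, Tmprss4 was 3.89 and 2.70 CPM in the embryos with 374 and 750 CPM of mesenchyme markers and 2.68 CPM in the one with 85.0 CPM. The melanocyte markers Dct, Tyr and Pmel, which are genes of pigment cells, were ordered like Tmprss4 between WT and the other genotypes. They summed to 82.6, 127 and 53.8 CPM in WT, 21.3, 38.9 and 20.2 CPM in heterozygotes and 13.5, 11.7 and 42.0 CPM in nulls. All 3 were lower in nulls, by log2 fold changes of -2.15 to -1.85, and 0 of 3 were called (edgeR adjusted p of 0.0551 to 0.236). Both Kölliker's organ markers, Fgf10 and Tecta, were called lower in nulls against WT, and 0 of 2 in heterozygotes. Of 4 neuron markers tested, 1 was called lower in both comparisons, Stmn2. Its means were 8.58, 3.21 and 1.10 CPM in WT, heterozygote and null. Of all genes tested, 0.786% and 0.0984% were called lower in nulls and in heterozygotes against WT. The part of all these markers in the values of Tmprss4 was not tested.

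**Figure D1:**
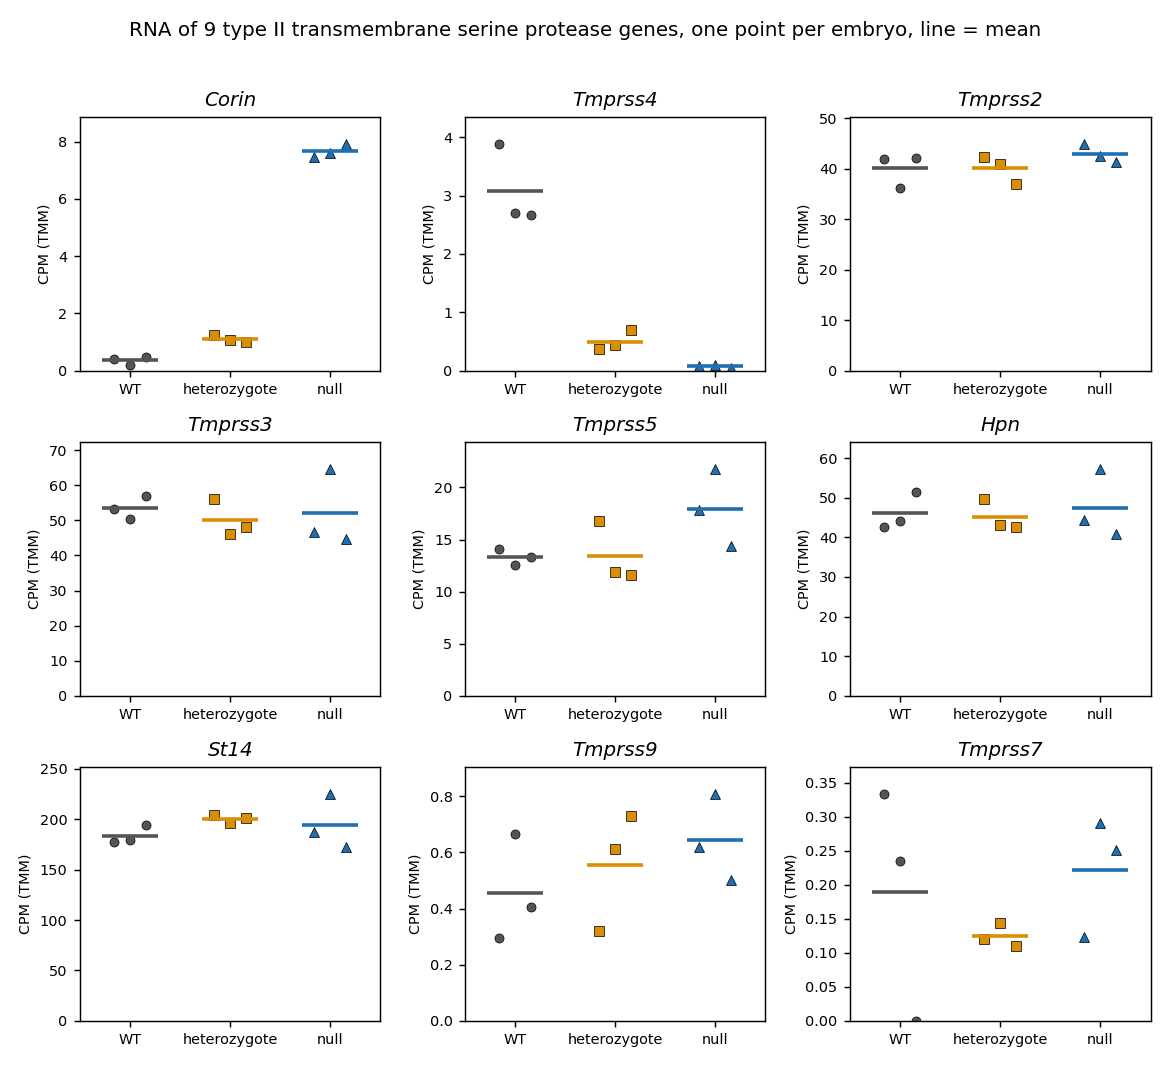
CPM of each of the 9 members (vertical axes, each from 0) in the 3 WT, 3 heterozygote and 3 null embryos, 1 point per embryo with a line at the genotype mean. Corin steps up from 0.359 to 1.10 to 7.65 CPM and Tmprss4 steps down from 3.09 to 0.496 to 0.0737 CPM, while the other 7 members have null means of 0.971 to 1.41 times their WT means.

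None of the remaining 7 members differed by genotype on the scale of Corin or Tmprss4, and 5 of them were more abundant than both per kb of exon. St14 encodes matriptase, a protease of epithelial barriers that activates prostasin, the product of Prss8. St14 lies at chr9:31089402-31131853. It was 178, 179 and 194 CPM in WT, 204, 196 and 202 CPM in heterozygotes and 188, 225 and 172 CPM in nulls. All 3 heterozygotes were above all 3 WT embryos, by 0.13 ± 0.0459 on the log2 scale, and nulls spanned both. The null against WT difference was 0.08 ± 0.107.

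Tmprss3, the deafness gene, lies at chr17:31179265-31198977. WT embryos had 53.2, 50.5 and 57.0 CPM, heterozygotes 56.2, 46.2 and 48.2 CPM, and nulls 46.7, 64.6 and 44.7 CPM. The genotypes overlapped, with null embryo 2 above all others and null embryos 1 and 3 below all WT embryos. The log2 fold change of null against WT was -0.05 ± 0.146.

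Hpn encodes hepsin, whose loss in mice is known to impair hearing, and lies at chr7:31098725-31115290. It was 42.6, 44.2 and 51.4 CPM in WT, 49.8, 43.1 and 42.5 CPM in heterozygotes and 44.3, 57.2 and 40.7 CPM in nulls. These values overlapped throughout, and the null against WT difference was 0.04 ± 0.144 on the log2 scale. Tmprss2, known for cutting viral surface proteins in the airway, lies at chr16:97564682-97611195. It had the steadiest null values of the abundant members, at 44.9, 42.6 and 41.4 CPM, beside 41.9, 36.2 and 42.1 CPM in WT and 42.4, 41.0 and 36.9 CPM in heterozygotes. Its null against WT difference was 0.10 ± 0.0935, with overlap.

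Tmprss5 encodes spinesin, first described in the spinal cord, and lies at chr9:49081260-49117587. It was 14.1, 12.5 and 13.3 CPM in WT, 16.8, 11.9 and 11.6 CPM in heterozygotes and 17.8, 21.7 and 14.4 CPM in nulls. All nulls were above all WT embryos, the nearest pair being 14.4 against 14.1 CPM, and heterozygote 1 lay among the nulls. The null mean was 1.35 times the WT mean, a log2 fold change of 0.43 ± 0.165, under the 0.5 used for a call. It was 0.28 without null embryo 2 and 0.57 without null embryo 3.

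Tmprss9 (chr10:80871848-80899492) and Tmprss7 (chr16:45656315-45693658) were close to the floor. Tmprss9, a protease with several catalytic domains in one chain, had 8, 17 and 12 reads in WT, 8, 17 and 20 in heterozygotes and 15, 25 and 12 in nulls. It shares 43 exon bases with Timm13 on the other strand, and Timm13 had 963 to 1912 reads. Without a stated strand setting, reads of the shared bases cannot be assigned to Tmprss9 with certainty. Tmprss7, also called matriptase-3, had 9, 6 and 0 reads in WT, 3, 4 and 3 in heterozygotes and 3, 9 and 6 in nulls, and passed the count filter in none of the comparisons. A difference between genotypes in Tmprss7 was not detectable at this depth.

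A gene was called when its edgeR quasi-likelihood adjusted p was under 0.05 and its log2 fold change over 0.5 in size. In null against WT, 8 of the 9 members passed the count filter and 2 were called, Corin higher and Tmprss4 lower, where 1.71% of the 17168 genes tested were called (0.92% higher, 0.786% lower). The median log2 fold change of the 8 was 0.09, beside 0.01 for all genes tested. In heterozygote against WT, 1 of 8 was called, Tmprss4, against 0.151% of 17269 genes (0.0521% higher, 0.0984% lower), and the median was 0.01. That call was absent when any heterozygote or WT embryo 2 was left out, although the log2 fold change of Tmprss4 stayed between -2.94 and -2.42. In null against heterozygote, 7 members were tested and 1 was called, Corin, against 0.615% of 17067 genes (0.293% higher, 0.322% lower), with a median of 0.10. Since Corin and Tmprss4 were listed for this pattern, nothing is read from these shares. Values of null and WT embryos did not overlap for Corin, Tmprss4 and Tmprss5, where 19% of the genes tested did not overlap. For heterozygote against WT these were Corin, Tmprss4 and St14, where the share over all genes was 18%, and for null against heterozygote Corin and Tmprss4, where it was 18.2%.

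**Figure D2:**
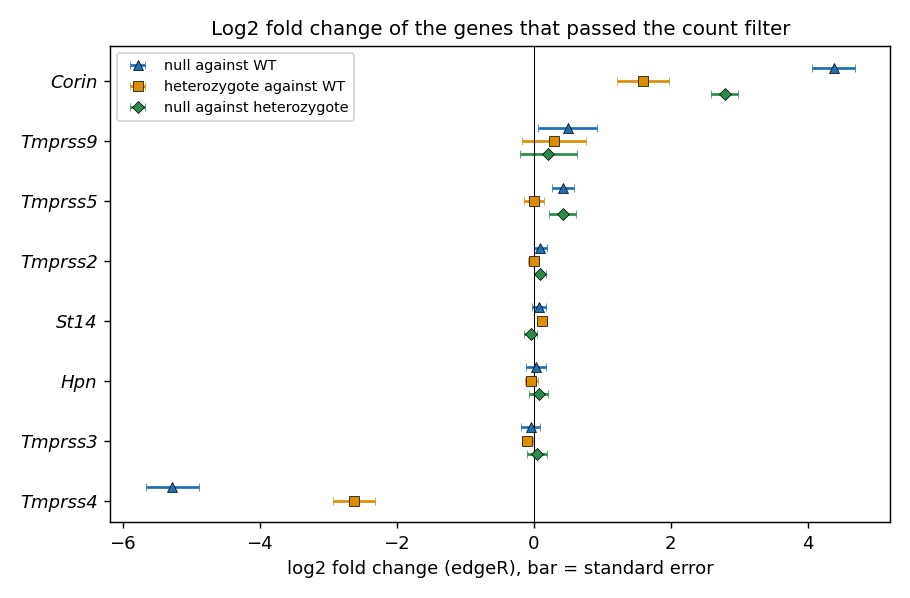
Log2 fold change (horizontal axis) with its standard error for the 8 members that passed the count filter, in null against WT, heterozygote against WT and null against heterozygote. Corin lies at 4.38, 1.59 and 2.79 and Tmprss4 at -5.28 and -2.62, whereas the other 6 lie between -0.10 and 0.50 in the 3 comparisons.

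Levels of different members can be compared only per length of exon. In WT ducts, CPM per kb of exon ran from 24.1 ± 1.19 for St14 through 13.5 ± 0.82 for Tmprss3, 11.2 ± 1.15 for Hpn, 5.48 ± 0.46 for Tmprss2, 4.35 ± 0.26 for Tmprss5 and 1.19 ± 0.27 for Tmprss4 (SD, n = 3). Tmprss9, Tmprss7 and Corin followed at 0.12, 0.0668 and 0.0665, with ranges over embryos that overlapped one another. The WT ranges of Tmprss3, 12.7 to 14.4, and Hpn, 10.4 to 12.5, did not overlap, but those in heterozygotes, 11.7 to 14.2 and 10.4 to 12.1, did. Tmprss2 and Tmprss5 were apart in WT, at 4.95 to 5.76 against 4.10 to 4.61, and both averaged 5.88 in nulls, where Tmprss5 spanned 4.70 to 7.11.

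St14 had the highest level in all 3 genotypes, while the ranges of Tmprss3 and Hpn, and those of Tmprss2 and Tmprss5, overlapped in heterozygotes and in nulls. Below these 5, Corin and Tmprss4 changed places. Tmprss4 was the sixth in WT at 1.19 CPM per kb and Corin was among the lowest 3. In heterozygotes the ranges of Tmprss4, 0.139 to 0.268, and Corin, 0.183 to 0.230, overlapped each other and that of Tmprss9, 0.0842 to 0.192. In nulls Corin was the sixth at 1.42 ± 0.043 CPM per kb and Tmprss4 had the lowest level of the 9 at 0.0285 ± 0.011. Corin in nulls therefore stood close to the level of Tmprss4 in WT, with ranges of 1.38 to 1.47 and 1.03 to 1.501 that overlapped.

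**Figure D3:**
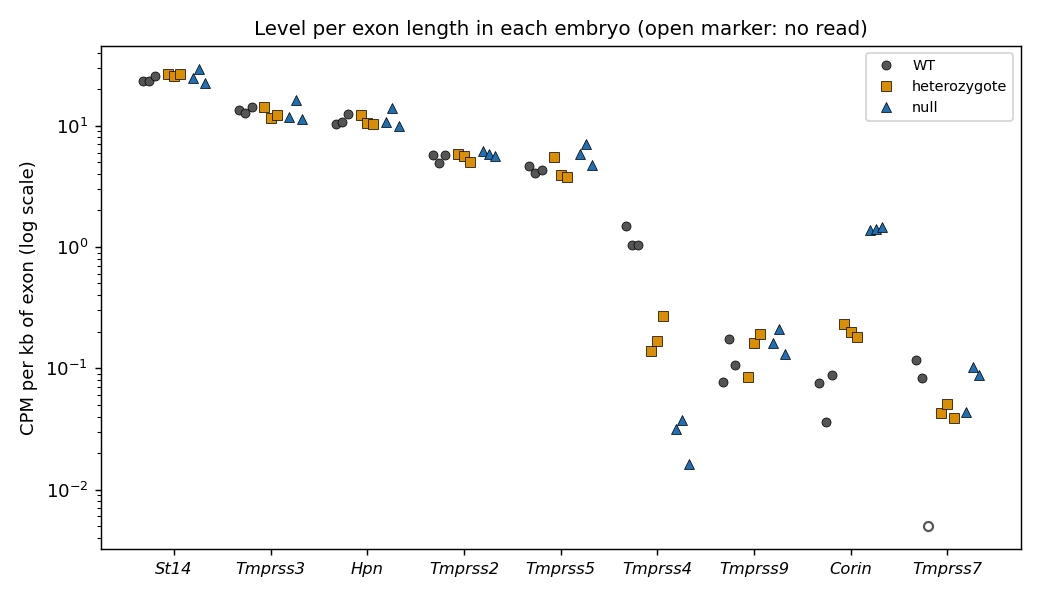
CPM per kb of exon on a log scale (vertical axis) for each member in each of the 9 embryos, with members in the order of their WT means. Corin is at 1.38 to 1.47 in nulls, within the 1.03 to 1.501 of Tmprss4 in WT, and the open circle marks the WT embryo with no read of Tmprss7.

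Within the null group, several members varied together from embryo to embryo. Null embryo 2 divided by the mean of null embryos 1 and 3 was 1.41 for Tmprss3, 1.35 for Tmprss5, 1.34 for Hpn and 1.25 for St14, but 0.987 for Tmprss2 and 0.986 for Corin. The same ratio had a median of 0.987 over 17793 genes, with 0.378 and 1.51 as its 5th and 95th percentiles. Summed lists gave 1.22 for the duct markers, 1.24 for the outer sulcus, 1.18 for the roof, 1.14 for neurons, 1.133 for Schwann cells and glia, 1.01 for Kölliker's organ and 0.974 for the prosensory domain. The membrane-anchored proteases led by Prss8 gave 1.26 and the inhibitors led by Spint2 gave 1.28. Single genes of these lists went the other way, with Pax2 at 169 CPM in null embryo 2 against 228 and 213 CPM and Spint1 at 105 against 125 and 108 CPM. Mesenchyme markers were 24.9 CPM in null embryo 2 beside 46.9 and 1170 CPM in null embryos 1 and 3. The part of tissue composition in these values was not tested. Without null embryo 2, null means were 180 CPM for St14, 42.5 for Hpn, 45.7 for Tmprss3 and 16.1 for Tmprss5, beside WT means of 184, 46.1, 53.6 and 13.3 CPM.

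**Figure D4:**
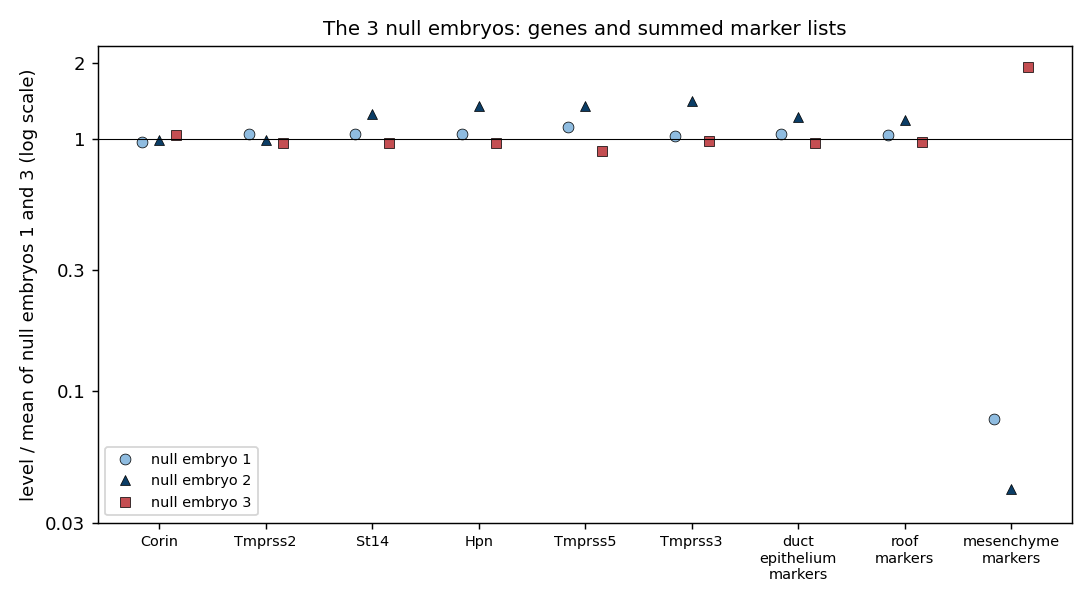
Level in each null embryo divided by the mean of null embryos 1 and 3 (vertical axis, log scale) for 6 members and for 3 summed marker lists. Null embryo 2 is at 1.25 to 1.41 for St14, Hpn, Tmprss5 and Tmprss3 and at 1.22 for the duct epithelium markers, while Corin and Tmprss2 are at 0.986 and 0.987.

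Among 10 further genes of the family, 5 had any read and only Tmprss6 passed the count filter. Tmprss6 encodes matriptase-2, which cuts hemojuvelin and so restrains the iron hormone hepcidin in the liver. It lies at chr15:78439667-78468634. Its levels were 26.9, 18.6 and 19.5 CPM in WT, 20.1, 13.98 and 18.5 CPM in heterozygotes and 7.96, 10.1 and 7.20 CPM in nulls. All nulls were below all other embryos, while heterozygotes and WT overlapped. Nulls did not overlap WT for 19% of all genes tested, or heterozygotes for 18.2%. Tmprss6 fell in nulls by 1.36 ± 0.194 on the log2 scale, to 38.9% of the WT mean (edgeR adjusted p = 0.0158). In heterozygotes its log2 fold change was -0.31 (edgeR adjusted p = 0.483). The null call held in 3 of 6 fits that each left out an embryo. It was lost without null 1, WT 1 or WT 2, with edgeR adjusted p up to 0.0755. Of 5 other fits to all the embryos compared, 4 made the call (DESeq2 adjusted p = 1.19e-09). The fit with a block for replicate number did not. Tmprss13, at 4 to 6 reads in WT, 5 in each heterozygote and 0 to 3 in nulls, was not tested, and Tmprss15 and the Tmprss11 genes had 0 to 2 reads in every library.

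The surroundings of the 2 members that differed most were then examined, in windows of 150 kb on either side that were chosen after the values were seen. Around Tmprss4, 11 genes had any read, 6 were tested and 2 were called in null against WT, Scn4b and Il10ra, one on each side, where 1.71% of all genes tested were called. Scn4b, a beta subunit of voltage-gated sodium channels, lies 18.6 kb away at chr9:45138395-45154152. It had 54, 38 and 43 reads in WT, 6, 12 and 15 in heterozygotes and 0, 5 and 6 in nulls. Il10ra, a subunit of the interleukin-10 receptor, lies 49.7 kb away on the other side at chr9:45253837-45269149. It had 34, 43 and 28 reads in WT, 2, 3 and 14 in heterozygotes and 4, 1 and 6 in nulls. For both genes each WT embryo was above each heterozygote and null embryo, as in Tmprss4, while heterozygotes and nulls overlapped. WT did not overlap nulls for 19% of all genes tested, or heterozygotes for 18%.

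Scn4b fell by 3.53 ± 0.659 on the log2 scale in null against WT (edgeR adjusted p = 0.0453) and Il10ra by 3.14 ± 0.587 (edgeR adjusted p = 0.0455). In heterozygote against WT the log2 values were -1.996 and -2.43, with edgeR adjusted p of 0.0588 and 0.0938. Both calls were close to the threshold with edgeR. Of 5 other fits to all the embryos compared, 4 made each call (DESeq2 adjusted p of 1.99e-05 and 0.00077). The fit with a block for replicate number made neither. Leaving out each embryo in turn kept Scn4b in 2 of 6 fits, with edgeR adjusted p up to 0.219, and Il10ra in 1 of 6, up to 0.237, and leaving out any WT embryo or null embryo 2 ended both, as did null embryo 1 for Il10ra. BC049352, whose gene overlaps Tmprss4 and reaches towards Il10ra, had 3, 6 and 10 reads in WT, 3, 1 and 3 in heterozygotes and 0, 0 and 1 in nulls, too few to test. The 4 remaining genes tested, Scn2b, Mpzl3, Mpzl2 and Gm48840, gave log2 fold changes of -0.11, -0.11, -0.28 and -0.30 in null against WT (edgeR adjusted p of 0.781, 0.837, 0.413 and 0.805).

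Il10ra is also a gene of white blood cells, so 5 of their markers (Ptprc, Csf1r, Aif1, Fcgr3 and Cx3cr1) were summed after the values were seen. The sums were 10.3, 14.3 and 2.51 CPM in WT, 2.45, 1.62 and 1.90 CPM in heterozygotes and 2.02, 2.03 and 7.20 CPM in nulls. WT embryos 1 and 2, with the highest sums, had the most reads of Il10ra, whereas null embryo 3, with 7.20 CPM, had 6 reads against 28 in WT embryo 3 with 2.51 CPM. The melanocyte sums given above also separated WT from the other embryos. The part of either cell type in the values of Scn4b and Il10ra was not tested. Around Corin, 11 genes had any read, 5 were tested and 0 were called, in null against WT with edgeR. Atp10d, 1.25 kb from Corin, differed by 0.48 on the log2 scale (edgeR adjusted p = 0.148), and Nfxl1, on the promoter side, by -0.01 (edgeR adjusted p = 0.981). Nipal1, Gm43815 and Commd8 gave 1.46, -0.82 and 0.06 (edgeR adjusted p of 0.273, 0.631 and 0.88). All nulls were above all WT embryos for Nipal1 and Atp10d and below them for Mpzl2 near Tmprss4, where 19% of all genes tested did not overlap.

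**Figure D5:**
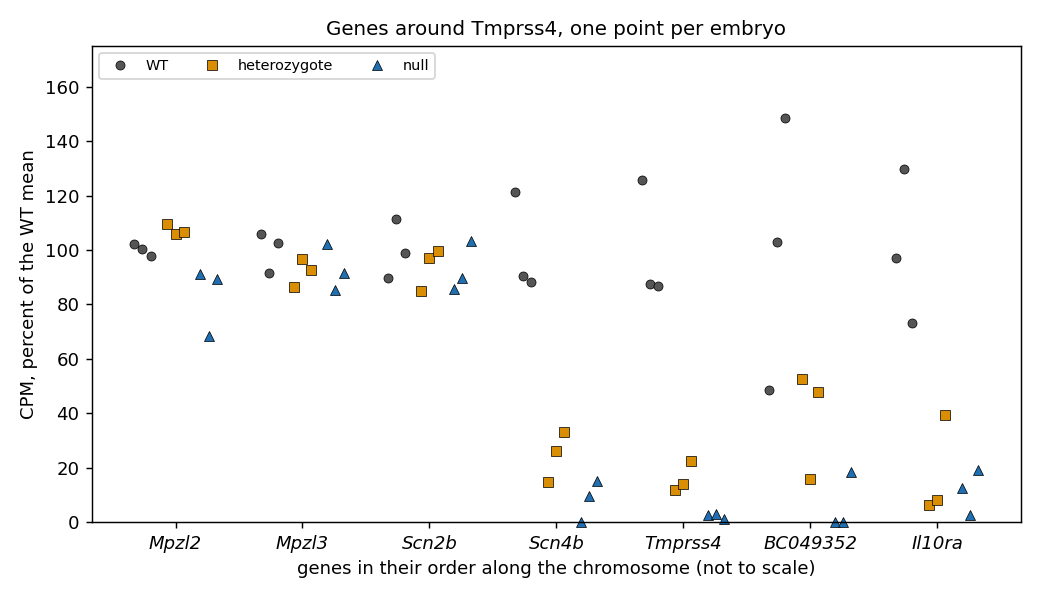
CPM of Tmprss4 and 6 genes near it in each embryo, as a percentage of the gene's WT mean (vertical axis), in the order of the genes along the chromosome. Scn4b, Tmprss4 and Il10ra are lower in every heterozygote and null embryo than in every WT embryo, and Mpzl3 and Scn2b have genotypes that overlap; BC049352 rests on 0 to 10 reads.

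Genes that work with these proteases were followed in 6 lists. Of 15 substrates, 12 were tested in null against WT, 1 rose and 0 fell, where 0.92% of all genes tested were called higher and 0.786% lower, with a median log2 fold change of 0.19 beside 0.01 for all genes. The one that rose was Scnn1b, the beta subunit of the epithelial sodium channel, which Tmprss4 and St14 products act on in other epithelia. It was 8.03, 6.86 and 7.999 CPM in WT, 12.1, 10.1 and 14.6 CPM in heterozygotes and 21.4, 23.8 and 21.4 CPM in nulls. Its genotypes did not overlap, as was so for 18% to 19% of all genes tested in each pair. Its log2 fold change was 1.54 ± 0.126 in null against WT (edgeR adjusted p = 0.00214), a call kept in all 11 alternative fits. Heterozygotes were 0.68 above WT (edgeR adjusted p = 0.0796).

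The other channel subunits, named after their values were seen, were Scnn1g with 0.66 (edgeR adjusted p = 0.233) and Scnn1a with 0.04 (edgeR adjusted p = 0.968) in null against WT. Thus 1 of 3 subunits passed the test, although the differences among the subunits were not themselves tested. Among the most abundant substrates, Epcam, an adhesion protein cut by matriptase, gave 0.07 (edgeR adjusted p = 0.879). Cdcp1, a surface protein cut by serine proteases, gave -0.47 (edgeR adjusted p = 0.0516) with all nulls below all WT embryos. Nulls and WT did not overlap for 19% of all genes tested. Hgf, the ligand of Met, gave 0.01, and Met itself -0.26 (edgeR adjusted p = 0.546).

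In the natriuretic peptide list, which holds the substrates of corin, their receptors and the enzymes that activate corin, 5 of 8 genes were tested and 1 fell, where 0.786% of all genes tested were called lower. That gene was Pcsk6, the proprotein convertase known to cut corin into its active form. Pcsk6 was 104, 87.9 and 102 CPM in WT, 88.0, 61.3 and 80.2 CPM in heterozygotes and 61.5, 64.1 and 65.9 CPM in nulls. Nulls lay below all WT embryos, where 19% of all genes tested did not overlap, and heterozygotes overlapped both. Pcsk6 fell by 0.62 ± 0.0843 on the log2 scale in nulls (edgeR adjusted p = 0.0127). The call held in 3 of 6 fits with an embryo left out. It was lost without null 1, WT 1 or WT 3 (edgeR adjusted p up to 0.0919). Of 5 other fits to all the embryos compared, 4 made the call (DESeq2 adjusted p = 2.18e-06). The fit with a block for replicate number did not. In the same null embryos, Corin was 21.3 times its WT mean and Pcsk6 at 65.2% of its own.

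The peptide precursors that corin is known to cut were at the floor. Nppa had 0 to 3 reads in each of the 9 libraries and Nppb had 1 read in all, in WT embryo 2. Npr1, the signalling receptor of both peptides, was also low, at 10 to 22 reads in WT, 7 to 8 in heterozygotes and 7 to 25 in nulls. Npr2, the receptor of the C-type peptide encoded by Nppc, was at 61.7 ± 2.74, 60.5 ± 2.1 and 71.5 ± 16 CPM in WT, heterozygote and null (SD, n = 3). Npr3, the clearance receptor, was 7.88, 6.82 and 10.3 CPM in WT and 15.4, 12.2 and 15.1 CPM in nulls, 0.77 higher on the log2 scale (edgeR adjusted p = 0.12). Furin, a further convertase, gave 0.06.

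Of 5 inhibitors, 3 were tested in null against WT and 0 were called with edgeR. Spint1 gave -0.08 and Spint2 0.15 on the log2 scale. Among the other membrane-anchored proteases, Prss8 was 152, 153 and 159 CPM in WT and 143, 177 and 140 CPM in nulls, a log2 fold change of -0.02, and Prss41 gave 0.25. Of the genes in the 6 lists, 0 were called in heterozygote against WT and 0 in null against heterozygote, where 0.151% and 0.615% of all genes tested were called with edgeR and 2266 and 1944 had an unadjusted p under 0.05. These zeros depend on the fit. Of 5 other fits to all the embryos compared, 3 called Scnn1b in heterozygote against WT, and 3 called Scnn1b and Tmprss6 in null against heterozygote.

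The genes whose log2 CPM followed Corin most closely over the 9 libraries, among 17796 genes, were Phldb1 (Pearson r = 0.993), Masp1 (0.987), Fndc7 (0.987), Alpk2 (0.983) and Elovl7 (0.981). Masp1 is itself a serine protease, of the lectin pathway of complement, and had 59.3 ± 7.06, 71.4 ± 5.15 and 107 ± 3.00 CPM in WT, heterozygote and null (SD, n = 3). Fndc7 was at 0.526 ± 0.186, 1.86 ± 0.401 and 25.7 ± 3.01 CPM, low in WT like Corin. Elovl7 ran from 10.5 ± 0.566 to 13.95 ± 0.144 CPM, so a high r did not mean a large difference.

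Nearest to Tmprss4 were Tbc1d14 (r = 0.97), Tspan8 (0.966), Pla2g4a (0.963), Smoc2 (0.962) and Frzb (0.961). Tspan8, a membrane tetraspanin, was 22.9 ± 1.39, 13.5 ± 3.13 and 7.44 ± 1.33 CPM in WT, heterozygote and null (SD, n = 3), and Frzb, a secreted Wnt antagonist, 44.4 ± 2.99, 32.6 ± 2.38 and 21.1 ± 0.45 CPM. Tmprss4, with 2.39% of its WT level left in nulls, was at a lower share of WT than any of these 5. These correlations are over the same 9 libraries in 3 genotype steps and are given as a description.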

How the data were processed

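The authors deposited raw counts per Ensembl gene for each library. The submitters' processing notes name cutadapt 1.13, STAR, HTSeq 0.6.1p1 and DESeq2 with the mm10 build, and the study's methods name TruSeq mRNA libraries, single reads and Cufflinks. Strand setting and annotation release are not given in the sources used here. Gene names and positions came from GENCODE vM21 (GRCm38), which holds 54079 of the 54232 genes.

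From these counts, each pair of genotypes was compared over its 6 libraries with edgeR 4.0.16 in R 4.3.3 (TMM, filterByExpr with a minimum count of 10, quasi-likelihood test, Benjamini-Hochberg adjustment over all genes tested). Total counts of 24095322 to 30819118 and 3 embryos per genotype limit the precision. The members, partner lists and markers were chosen with earlier results of these data known, and members received no p-value. Named genes are the members, Prdm16, in each list the called genes and up to 4 of the most abundant, and the 5 genes most correlated with Corin and with Tmprss4. Some genes that this rule names are not reported here. The neighbouring genes, white blood cell markers and channel subunits were added after the values were seen. Alternatives were DESeq2 1.42.0, RLE normalization, no count filter, one fit of all 9 libraries, a block for replicate number, and leaving out each embryo in turn. Chi-square per gene between libraries of a genotype was 5.70 to 68.8, where repeated sequencing of 1 library gives about 1. The steps were tested on simulated data. Catalytic-site sequences come from the longest reading frame of each gene's transcripts, and promoters from RefSeq, where 6 members had an entry.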

Additional observations from a re-analysis of the deposited data

How the results depend on the processing

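In null against WT, Corin and Tmprss4 were the members called under all 11 alternatives, with log2 fold changes of 4.10 to 4.64 and -5.52 to -5.03. Both were listed for this pattern in the same counts, so their calls are a description. In heterozygote against WT, the single member called (Tmprss4) became 2 with no count filter (Corin and Tmprss4), 0 with all 9 libraries in one fit, and 0 to 1 when an embryo was left out. In null against heterozygote, 1 (Corin) became 2 with all 9 libraries in one fit (Corin and Tmprss4). Over 253 alternative fold changes of single members, no called one changed sign, while uncalled ones close to 0 did (Hpn in null against WT ran from -0.11 to 0.14). Counts over all genes depended strongly on the setting. For null against WT, 293 genes became 618 with DESeq2, 476 with no filter, 468 with all 9 libraries, and 68 to 446 without 1 embryo. For heterozygote against WT, 26 became 319 with DESeq2, 684 with no filter, 0 with all 9 libraries (1130 at an unadjusted edgeR p under 0.05), and 0 to 505 without 1 embryo. For null against heterozygote, 105 became 354, 366, 164, and 12 to 182 in the same order. The cause was not tested. Same-numbered embryos share only a number, with correlations of their deviations from -0.284 to 0.202. With the replicate number as a block, 133, 197 and 52 genes were called in the 3 comparisons, and the calls of Scn4b (edgeR adjusted p = 0.169), Il10ra (0.175), Tmprss6 (0.0604) and Pcsk6 (0.0559) in null against WT were not made. Nothing says the embryos of a genotype came from separate litters, and Tmprss7, Tmprss9 and null Tmprss4 are limited by depth.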
